A study of Mus musculus with 4 samples.

Results

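The 516 distinct intervals described here were called in the P19 library labelled as made without primary antibody, out of 4938 distinct intervals in the 4 deposited peak lists. They were chosen by a measured value: each rose above its local background in that library by the authors' peak caller. Every distinct interval of the list was kept, on placed chromosomes, on unplaced sequence and on the mitochondrial genome. Where an interval held several of the list's 620 summits, the summit with the best p stood for it. Its no-antibody height is therefore a description and supports nothing.

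P19 is a mouse embryonal carcinoma line, and 4 libraries of it were profiled by CUT&Tag, 1 per condition. Wild-type cells given a control adenovirus (shCtrl) were profiled with S9.6, which binds RNA:DNA hybrids, and again without primary antibody. Cells given an adenovirus with hairpin 1 or hairpin 2 against Ube2t (shUbe2t #1 and shUbe2t #2) were profiled with S9.6 too. All 4 libraries come from adenovirus-treated cells of 1 line, and the degree of knockdown cannot be read from peak lists. The deposited peak names of the no-antibody library begin with IgG while its label says that no primary antibody was used, so whether a non-specific antibody was present is not settled, and the label is followed.

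CUT&Tag brings a transposase to an antibody bound in permeabilised nuclei, where it cuts and tags nearby DNA. Without a primary antibody the transposase is not directed to a target, and what it tags depends on where free enzyme reaches DNA. Accessible promoters are known places of such tagging. Sequences with many copies in the cell and few in the assembly, such as satellite repeats, ribosomal DNA, 5S gene arrays and mitochondrial DNA, also stack many reads on few positions. R-loops are known at CpG-rich gene starts, in ribosomal DNA and in mitochondrial DNA, so the same places are of interest to an S9.6 experiment.

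The promoter windows that the no-antibody intervals touched show what kind of gene start was called without antibody. RefSeq windows on GRCm38.p6, the same build as mm10, run from 250 bases before to 50 after each start, and 18 of 32851 were touched. The 5 printed here are Gpr155, Baiap2l1 and Add3, whose intervals were in all 3 S9.6 lists and whose windows hold repeated GC-rich words, Stap2, the tallest interval among the 18, and Zfyve19, whose interval was in no S9.6 list. Each reads 5′ to 3′ on the gene's strand, with the bases inside the no-antibody interval in capitals. The mature miR-6236, whose hairpin gene lies inside the highest-fold interval at a gene end, follows with its seed (bases 2 to 8) in capitals.
Gpr155 (chr2:73386431-73386730, minus strand): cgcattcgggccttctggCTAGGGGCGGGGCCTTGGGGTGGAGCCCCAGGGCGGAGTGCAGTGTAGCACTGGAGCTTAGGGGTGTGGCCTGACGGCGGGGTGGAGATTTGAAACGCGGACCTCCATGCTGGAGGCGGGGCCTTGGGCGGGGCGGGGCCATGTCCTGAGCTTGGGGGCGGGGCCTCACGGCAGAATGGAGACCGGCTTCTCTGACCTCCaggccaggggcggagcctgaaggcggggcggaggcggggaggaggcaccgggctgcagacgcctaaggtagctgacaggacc
Baiap2l1 (chr5:144358063-144358362, minus strand): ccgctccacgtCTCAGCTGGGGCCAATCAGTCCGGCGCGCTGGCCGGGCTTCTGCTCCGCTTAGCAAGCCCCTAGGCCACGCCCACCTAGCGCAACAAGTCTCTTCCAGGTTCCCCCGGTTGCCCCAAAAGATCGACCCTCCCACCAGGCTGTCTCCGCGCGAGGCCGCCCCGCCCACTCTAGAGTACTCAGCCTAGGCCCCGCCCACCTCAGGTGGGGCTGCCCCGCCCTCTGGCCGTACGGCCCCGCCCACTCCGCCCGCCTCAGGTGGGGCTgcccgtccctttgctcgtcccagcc
Add3 (chr19:53142506-53142805, plus strand): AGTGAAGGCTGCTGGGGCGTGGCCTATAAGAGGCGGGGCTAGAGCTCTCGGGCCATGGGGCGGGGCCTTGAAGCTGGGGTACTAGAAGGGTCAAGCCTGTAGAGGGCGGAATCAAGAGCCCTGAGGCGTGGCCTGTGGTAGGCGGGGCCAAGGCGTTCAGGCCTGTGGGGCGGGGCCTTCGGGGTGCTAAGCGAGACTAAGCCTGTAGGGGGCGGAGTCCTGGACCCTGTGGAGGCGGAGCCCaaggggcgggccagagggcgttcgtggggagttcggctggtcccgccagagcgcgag
Stap2 (chr17:56005557-56005856, minus strand): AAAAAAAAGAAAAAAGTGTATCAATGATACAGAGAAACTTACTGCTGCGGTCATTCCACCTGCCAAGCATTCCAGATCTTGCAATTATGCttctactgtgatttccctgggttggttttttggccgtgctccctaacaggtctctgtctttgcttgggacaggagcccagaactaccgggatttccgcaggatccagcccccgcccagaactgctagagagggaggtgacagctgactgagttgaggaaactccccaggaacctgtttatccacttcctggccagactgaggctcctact
Zfyve19 (chr2:119208470-119208769, plus strand): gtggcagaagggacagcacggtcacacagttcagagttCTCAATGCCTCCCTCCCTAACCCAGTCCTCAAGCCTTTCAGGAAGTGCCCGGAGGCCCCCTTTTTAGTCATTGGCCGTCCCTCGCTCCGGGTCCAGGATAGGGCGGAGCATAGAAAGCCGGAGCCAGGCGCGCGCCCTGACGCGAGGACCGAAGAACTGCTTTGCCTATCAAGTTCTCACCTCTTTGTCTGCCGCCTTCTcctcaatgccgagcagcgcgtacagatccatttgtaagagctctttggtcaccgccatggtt
miR-6236 (chr9:110281353-110281371, plus strand): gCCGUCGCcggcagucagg

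The capitals are bases under the called interval and not a binding site. Median GC content was 64.5% in the 18 touched windows and 52.7% in all 32851. The word GGGCGNGGC, or GCCNCGCCC on the other strand, is an extended GC box, and it was picked after these windows had been read. It stood at least 2 times in 8 of the 18 windows (44.4%) and in 4.26% of all windows, with overlapping copies counted. The windows of Gpr155 and Gm13707 share 1 interval, as do those of Baiap2l1 and Dmrt1i, so the 18 are not separate places. Gpr155 (a transmembrane protein) held 4 copies, Baiap2l1 (an actin-bundling adaptor) 5 and Add3 (a membrane-skeleton adducin) 3. Stap2 (a signalling adaptor) and Zfyve19 (an abscission checkpoint protein) held 0.

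Depth could be estimated only in relative terms. The lowest background recovered among a library's called intervals was taken to rise with sequencing depth. It was 0.772 fragments without antibody against 1.31, 1.21 and 1.23 with S9.6 in shCtrl, shUbe2t #1 and shUbe2t #2. By that measure, which was not checked against read counts, the no-antibody library had 58.7% of the shCtrl S9.6 depth. Heights are given below as pileup, the number of fragments over the summit recovered from the deposited fold and p, and ratios between libraries are of pileup divided by that lowest background. With 1 library per condition no difference was tested between conditions, and the intervals in brackets are exact 95% limits that cover counting error only.

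Most no-antibody intervals lay in the S9.6 lists as well. The shCtrl S9.6 list overlapped 425 of the 516 from 1 bp on (82.4%, 78.8 to 85.6), the shUbe2t #1 list 406 (78.7%, 74.9 to 82.1) and the shUbe2t #2 list 402 (77.9%, 74.1 to 81.4). Among the 2773 regions obtained by merging the 3 S9.6 lists, the share called in each was 45.4%, 54.2% and 58.6%. All 3 lists together overlapped 366 no-antibody intervals (70.9%, 66.8 to 74.8), and 20.8% of the merged regions were called in all 3. A further 51 intervals were in 2 lists, 33 in 1 list and 66 in none (12.8%, 10.0 to 16.0). All of the libraries were made from 1 cell line, and these shares describe the lists and not the conditions.

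Of the 91 intervals outside the shCtrl S9.6 list, most were the 66 in no list. Both knockdown lists without shCtrl held 12 of the 516, shUbe2t #1 alone 5 and shUbe2t #2 alone 8. In the other direction, shCtrl S9.6 alone held 20, shCtrl with shUbe2t #1 held 23, and shCtrl with shUbe2t #2 held 16. The S9.6 list made from the same kind of cells as the no-antibody library thus had the largest count of the 3. By lowest background its library was also the deepest of them.

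Whether an interval recurred followed its height without antibody. Of the 47 intervals with a pileup of 7 to 9, 6 were in all 3 S9.6 lists and 31 in none. Of the 109 with 10 to 14 fragments, 36 were in all 3 and 31 in none, and of the 135 with 15 to 24 fragments, 102 and 4. Above that nearly every interval recurred. All 3 lists held 109 of the 110 intervals with 25 to 49 fragments and 113 of the 115 with 50 or more, and none of these 225 was absent from all of them.

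**Figure D1:**
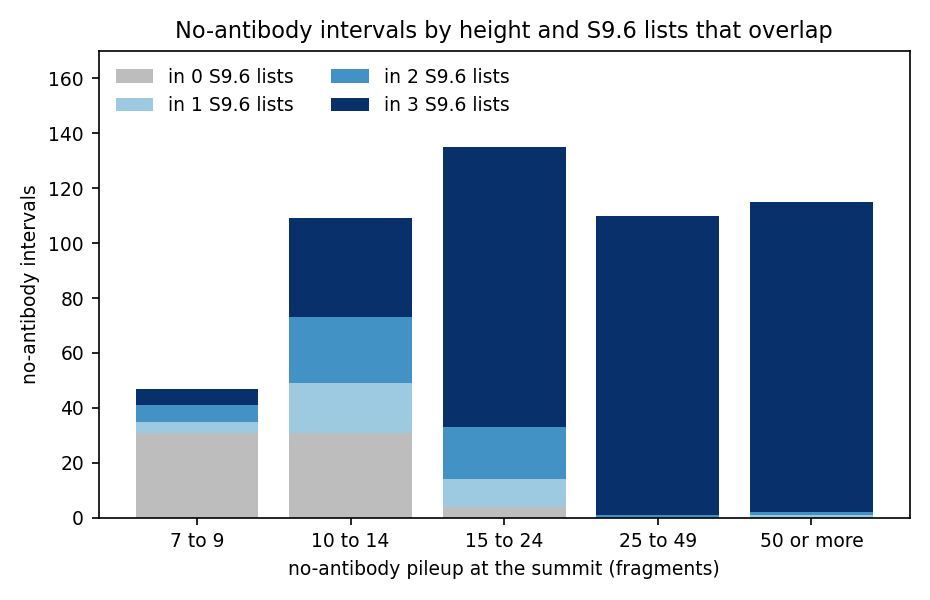
Number of no-antibody intervals (y axis) by their pileup in that library (x axis, fragments over the summit), split by how many of the 3 S9.6 lists overlap them. The lowest class is mostly in 0 lists (31 of 47) and the 2 highest classes are almost wholly in 3 (109 of 110 and 113 of 115).

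The 66 intervals absent from every S9.6 list were low and narrow. Their median pileup was 10 and the highest 22, their median fold 4.89 and their median width 200 bp, the shortest width in the list. Those in all 3 lists had a median pileup of 30, a median fold of 7.90 and a median width of 332 bp. The local background separated the classes as well. It stood at 1.56 times the library's lowest value in the intervals of no S9.6 list and at 3.43 times in those of all 3.

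The 10 highest folds among the intervals of no S9.6 list ran from 5.98 to 8.08, on 10 to 15 fragments. Ston1, a gene of endocytic sorting, held the first in its body (chr17:88643301-88643535, fold 8.08, 15 fragments). Mertk, a phagocytic receptor tyrosine kinase (fold 6.67, 15 fragments), Vipr2, a neuropeptide receptor (6.58, 14 fragments), Stau2, an RNA-transport protein (6.04, 10 fragments), and Pde8a, a cyclic AMP phosphodiesterase (5.98, 13 fragments), held others in their bodies, as did the non-coding LOC108167682 (6.63, 12 fragments). The remaining 4 lay between annotated genes. None of the 10 was within 1000 bp of a gene end.

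An interval missing from an S9.6 list has no S9.6 height there, only a bound. With the no-antibody local background scaled to each S9.6 library, the smallest height that would have been called was at the median 0.587 times the scaled no-antibody height for the 91 intervals missing from shCtrl, 0.579 times for the 110 missing from shUbe2t #1 and 0.575 times for the 114 missing from shUbe2t #2. Every interval had been picked for a high value in the no-antibody library, and the part of that choice in the difference was not tested.

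The no-antibody and S9.6 summits stood at nearly the same base. The median distance between them was 20 bp in shCtrl, 20 bp in shUbe2t #1 and 17 bp in shUbe2t #2, and 92.2%, 91.6% and 91.3% of overlapping pairs were within 100 bp. S9.6 intervals covered the whole no-antibody interval in 57.9%, 50.5% and 54.0% of pairs. They were the wider ones in 313 of 425, 265 of 406 and 268 of 402 pairs, by a median of 24, 19 and 17.5 bp.

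Seen from the S9.6 side, intervals with a no-antibody counterpart had the higher share of recurrence in each height class. Among shCtrl S9.6 intervals of 24 to 47 fragments, 131 of 143 with a no-antibody interval were also in both knockdown lists (91.6%, 85.8 to 95.6), against 28 of 72 without (38.9%, 27.6 to 51.1). At 48 fragments or more the numbers were 177 of 178 (99.4%) and 7 of 20 (35.0%, 15.4 to 59.2). At 16 to 23 fragments they were 65.6% (52.7 to 77.1) and 39.6% (32.6 to 46.9), and at 12 to 15 fragments 14 of 28 (30.6 to 69.4%) and 22.7% (18.2 to 27.7). The lowest heights, 8 to 11 fragments, gave 37.5% of 8 intervals (8.52 to 75.5) and 9.39% of 245 (6.04 to 13.8). In the lowest class the limits overlap, and in the other 4 they lie apart.

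**Figure D2:**
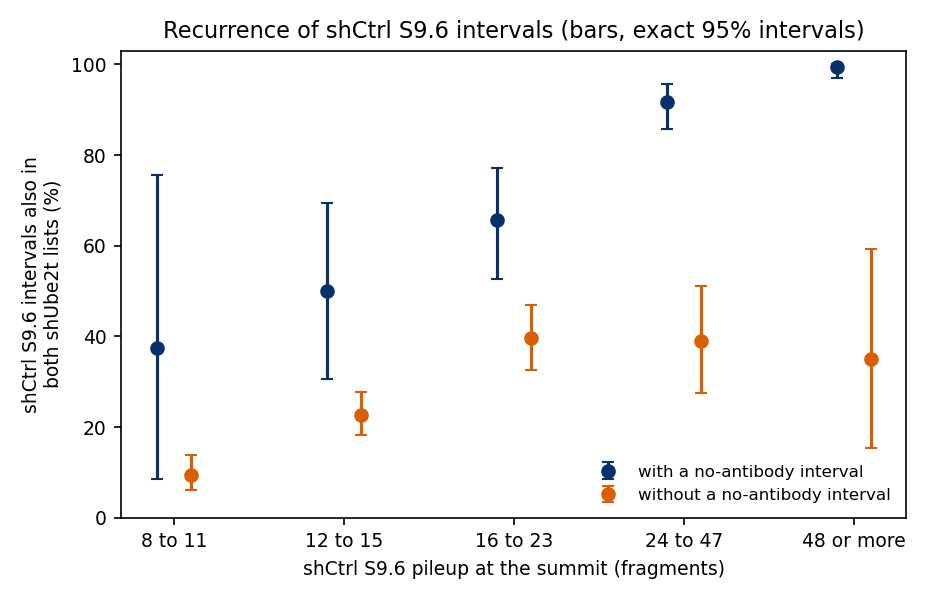
Share of shCtrl S9.6 intervals that both shUbe2t lists also hold (y axis, percent) by their shCtrl S9.6 pileup (x axis, fragments), with and without an overlapping no-antibody interval. Points are shares and bars exact 95% limits, and the shares with a no-antibody interval are higher in each of the 5 classes, from 37.5 against 9.39% to 99.4 against 35.0%.

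The tallest S9.6 intervals were places also called without antibody. Of the 50 S9.6 intervals with the highest pileup, 50 overlapped a no-antibody interval in each of the 3 lists. Of the first 200 the numbers were 179 in shCtrl, 186 in shUbe2t #1 and 187 in shUbe2t #2. Beyond the first 400 the share fell to 12.5% (10.4 to 14.9), 8.85% (7.25 to 10.7) and 7.50% (6.10 to 9.11). Merged S9.6 regions with a no-antibody interval were called in all 3 libraries in 366 of 444 cases (82.4%), and those without in 210 of 2329 (9.02%).

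Per unit of depth, S9.6 signal at most of these places was below the signal without antibody. The median ratio of depth-scaled pileup, S9.6 over no antibody, was 0.845 in shCtrl (over 425 intervals), 0.861 in shUbe2t #1 (406) and 0.829 in shUbe2t #2 (402). Since the intervals were picked for their no-antibody height and a call was needed in both libraries, these medians describe the set and test nothing. Without the depth scale they stood above 1, at 1.44, 1.35 and 1.32, so their direction rests on it. Of the 366 intervals in all 3 lists, 190 were below 1 in all 3 S9.6 libraries and 96 were above 1 in all 3. Intervals near gene ends stood higher, with medians of 1.09, 1.01 and 1.02, against 0.785, 0.810 and 0.791 in gene bodies and 0.836, 0.835 and 0.792 between genes. By height, those with 7 to 9 fragments had medians of 1.17, 1.41 and 1.25 and those with 50 or more 0.771, 0.807 and 0.734. A low interval enters these medians only where S9.6 reached its own threshold.

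**Figure D3:**
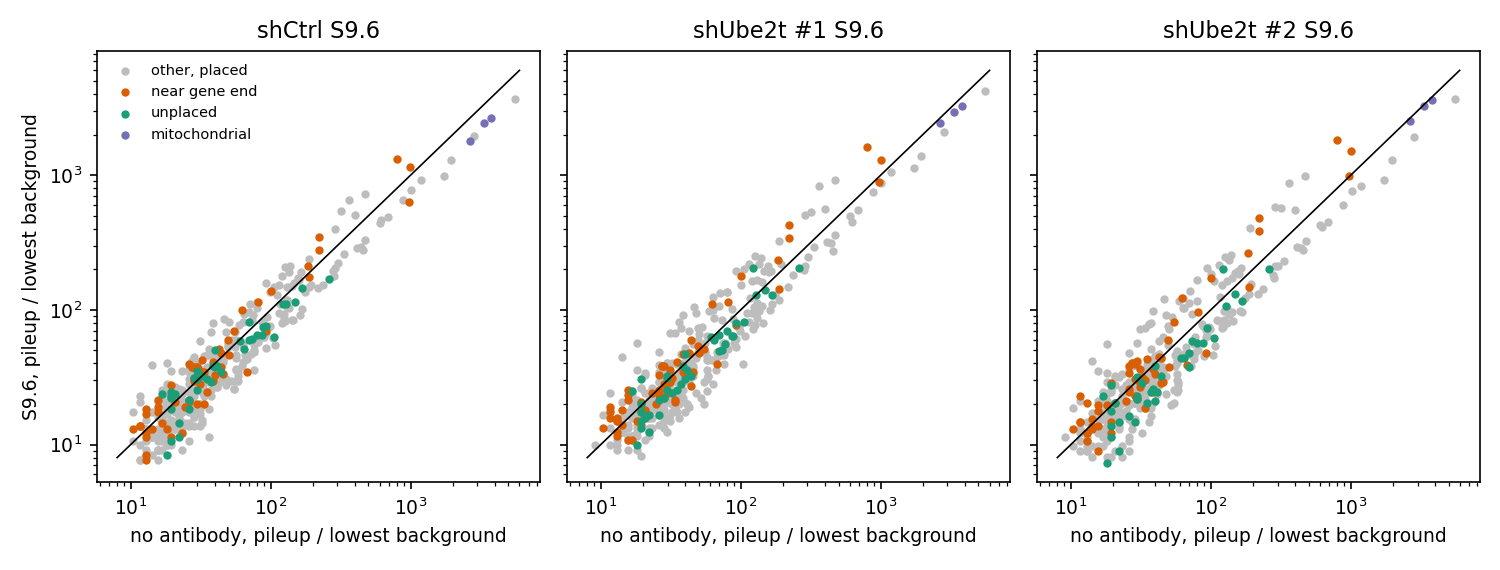
Each point is a no-antibody interval called in that S9.6 library, with its no-antibody pileup over the lowest background on the x axis and its S9.6 pileup over the lowest background on the y axis, both on log scales, in 1 panel per S9.6 library. The line marks equal values, and most of the tallest placed intervals, the highest among them, lie below it. Several intervals near gene ends (medians 1.09, 1.01 and 1.02) lie above it. Among these are the tall AY036118 and Rn18s-rs5 (771 and 618 fragments without antibody).

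The tallest interval of the list lay on chromosome 2. There a group of 3 intervals lay within 5193 bp without an annotated gene (chr2:98662211-98667403). Its tallest interval held 4299 fragments without antibody and 4796, 5093 and 4486 with S9.6 in shCtrl, shUbe2t #1 and shUbe2t #2. Scaled for depth the S9.6 values were 0.655, 0.754 and 0.655 times the no-antibody value, so all 3 libraries were lower there. A second group, of 13 intervals at the start of chromosome 9 (chr9:3000026-3038309), reached 918 fragments without antibody and 1203, 1271 and 1021 with S9.6, at 0.769, 0.881 and 0.698 times. Both segments are known high-signal segments of mouse sequencing data that hold satellite repeats, which is background knowledge and not measured here.

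The mitochondrial genome gave 3 intervals in each of the 4 libraries, at like positions. In the 2 knockdown libraries the second interval began at 1508 and 1510, in the others at 1742. Without antibody the first (positions 36 to 1241) covered all of mt-Rnr1, the 12S ribosomal RNA gene, the second (1742 to 6494) ran from the 16S gene mt-Rnr2 through ND1 and ND2 into COX1, and the third (11008 to 16259) ran from ND4 through ND5, ND6 and CYTB past the end of the gene map. No interval of any library touched COX2, ATP8, ATP6, COX3, ND3 or ND4L. In the second interval the pileup was 2922 without antibody and 3461, 3941 and 4428 with S9.6 in the control and the 2 knockdowns. The folds were low, from 1.81 to 2.60 without antibody where the local background was 1390 to 1473 times the lowest value of the library.

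Scaled for depth, the 3 mitochondrial intervals ordered the S9.6 libraries alike. Their ratios to no antibody ran from 0.668 to 0.721 in shCtrl, from 0.858 to 0.909 in shUbe2t #1 and from 0.948 to 0.980 in shUbe2t #2. A nuclear interval on chromosome 1 at Gm10222 (chr1:24612499-24613671), known as a nuclear copy of mitochondrial sequence, held 752 fragments without antibody and 831, 1076 and 1207 with S9.6. Its ratios were 0.649, 0.911 and 1.01, the same order as on the mitochondrial genome. Whether reads were shared between the copies depends on how multiply aligned reads were treated, which is not given in the sources used here. This interval was singled out after its values were seen.

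A pair of neighbouring intervals on chromosome 17 at ribosomal-RNA-related annotation, looked at after their values were seen, was higher with S9.6 than without antibody per depth. The interval at Rn18s-rs5, an annotated 18S-related sequence on chromosome 17 (chr17:39843043-39846883), held 618 fragments without antibody and 1723, 1952 and 2241 with S9.6. These are 1.64, 2.01 and 2.27 times the no-antibody value per depth. The neighbouring interval at the non-coding AY036118 held 771 and then 1511, 1569 and 1867 fragments, at 1.15, 1.30 and 1.52 times. Both had low folds without antibody (2.18 and 2.72) on a local background of 367 times the lowest.

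Other intervals stood above the no-antibody value in all 3 S9.6 libraries, and they were picked out by that ratio. Efl1, a ribosome assembly GTPase gene, held 11 fragments without antibody in its body and 51, 54 and 51 with S9.6 (2.72, 3.12 and 2.91 times per depth). Gnb1l held 14 fragments and then 53, 69 and 69 (2.22, 3.14 and 3.09 times). These are ratios to small counts, and their lower 95% limits were 1.40, 1.62 and 1.50 for Efl1 and 1.22, 1.75 and 1.72 for Gnb1l. At larger counts Cmss1, named for a yeast ribosomal small-subunit factor, held 279 fragments in its body and then 851, 1012 and 1075 (1.79, 2.31 and 2.42 times). Cdk8, the Mediator kinase gene, held 245 and then 710, 646 and 705 (1.70, 1.68 and 1.81 times).

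The lowest ratios were in intervals of moderate height, and these too were picked out by that ratio. In the body of Nf1, a RAS GTPase-activating protein gene, the pileup was 20 without antibody and 18, 17 and 13 with S9.6, at 0.528, 0.541 and 0.408 times per depth. Tafa2, a secreted neural protein gene, held 18 and then 17, 16 and 12 (0.554, 0.566 and 0.418 times). Between genes on chromosome 15 (chr15:21656397-21656627) the pileup was 42 and then 34, 35 and 25, at 0.475, 0.530 and 0.373 times. In these intervals the unscaled S9.6 counts were below the no-antibody count although the S9.6 libraries were deeper. The upper 95% limits of the ratios were 1.05, 1.09 and 0.861 for Nf1 and 1.14, 1.18 and 0.918 for Tafa2. At both genes they thus reached above 1 in shCtrl and shUbe2t #1. For the chromosome 15 interval the upper limits were 0.765, 0.851 and 0.627. The part that picking the lowest ratios had in these values was not tested.

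Knockdown over control was set side by side at the same places, where the rule had used neither S9.6 value. Across the intervals called in both libraries, the median depth-scaled ratio was 1.05 for shUbe2t #1 over shCtrl (389 intervals, 226 above 1) and 0.986 for shUbe2t #2 over shCtrl (382 intervals, 181 above 1). Both ratios share the shCtrl library. The 95% limits of the median, taken from the ranked intervals, were 1.02 to 1.08 for hairpin 1 and 0.960 to 1.03 for hairpin 2. Intervals are not replicates of a condition, and neighbours can share 1 S9.6 interval. These limits therefore describe the set and test no difference between conditions. On placed chromosomes alone the hairpin 2 median was 1.00. Without the depth scale both medians were below 1, at 0.967 and 0.922.

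At 58 intervals with a no-antibody pileup of 100 or more, a limit set after the values were seen, counting error was small enough to look at single places. All 58 were in the 3 S9.6 lists. The 95% limits of the ratio to shCtrl lay above 1 for 22 intervals in shUbe2t #1, for 15 in shUbe2t #2 and for 12 in both. Over all 572 shCtrl S9.6 intervals that both knockdown lists held, the shares above 1 were 7.87%, 7.69% and 4.37%, and over the 205 of these without a no-antibody interval 3.41%, 2.93% and 0.488%. Taller intervals have narrower limits, so the shares cannot be ranked. Limits below 1 were found at 3 of the 58 in each knockdown and at 0 in both, against 2.10%, 3.15% and 0.350% of the 572.

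The 12 intervals above shCtrl with both hairpins included organelle and ribosomal sequence. They were the 3 mitochondrial intervals (ratios of 1.22 to 1.36 with hairpin 1 and 1.36 to 1.42 with hairpin 2), the Gm10222 interval (1.40 and 1.55), the ribosomal Rn18s-rs5 (1.23 and 1.39) and AY036118 (1.13 and 1.32), and 6 others. Those 6 were in the bodies of Cmss1 (1.29 and 1.35), Zc3h7a, an RNA-binding zinc finger gene (1.36 and 1.70), and the non-coding Gm36876 (1.29 and 1.37), near an end of the pseudogene Gm18604 (1.23 and 1.38) and of Lars2, the mitochondrial leucyl-tRNA synthetase gene (1.23 and 1.39), and between genes on chromosome 3 (chr3:5860257-5860926, 1.28 and 1.47). In each of the 12 hairpin 2 had the higher value. Whether reads were shared among the 12 places was not tested, so they may not be 12 separate sources of signal. The Lars2 interval held 170 fragments without antibody and 364, 413 and 474 with S9.6.

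The satellite-bearing groups and the tallest gene-body site did not follow these 12. The tallest chromosome 2 interval had a ratio of 1.15 (1.11 to 1.20) with hairpin 1 and 1.000 (0.960 to 1.04) with hairpin 2. At the tallest chromosome 9 interval the values were 1.15 (1.06 to 1.24) and 0.907 (0.834 to 0.987), the only one of the 58 with limits above 1 for hairpin 1 and below 1 for hairpin 2. At Chl1, a neural adhesion gene whose body holds the highest fold of the list, they were 1.08 (1.02 to 1.14) and 0.982 (0.928 to 1.04), on 2187 fragments without antibody and 2567, 2552 and 2358 with S9.6. Cdk8 stood at 0.987 (0.886 to 1.10) and 1.06 (0.955 to 1.18). Each knockdown is 1 library, and differences between libraries in mitochondrial or repeat content and effects of the hairpins cannot be told apart.

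**Figure D4:**
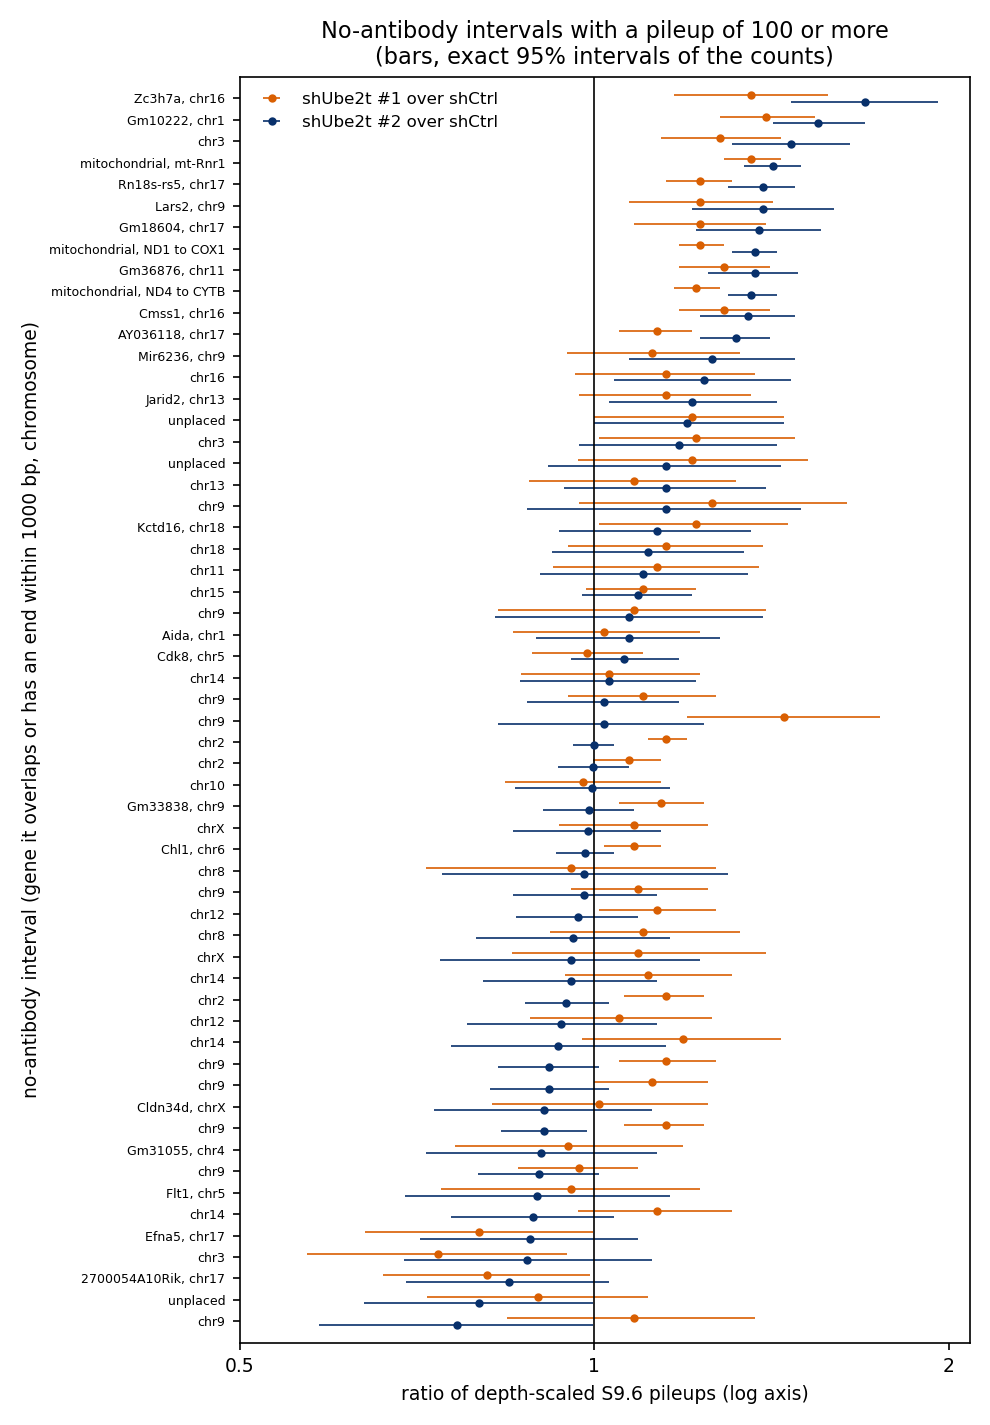
Ratio of depth-scaled S9.6 pileup, each shUbe2t library over shCtrl (x axis, log scale), at the 58 no-antibody intervals with at least 100 fragments (y axis, ordered by the shUbe2t #2 ratio). Points are ratios and bars exact 95% limits of the counts, and the 12 intervals with limits above 1 for both hairpins, among them the mitochondrial intervals and Rn18s-rs5, are at the top.

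The remaining intervals of high fold lay away from gene ends with 1 exception. Of the 10 highest folds on placed chromosomes, from 29.3 to 43.5, those at Chl1 and Efna5 (an ephrin gene, 145 fragments without antibody and 194, 143 and 160 with S9.6) were in gene bodies and 7 were between genes. The exception was Mir6236, a microRNA gene on chromosome 9 (chr9:110281150-110281468), with 143 fragments without antibody and 276, 286 and 325 with S9.6. It was also the only 1 of the 10 whose S9.6 ratios exceeded 1 in all 3 libraries (1.13, 1.27 and 1.43). The other 9 ran from 0.556 to 0.828. The mature sequence printed above lies inside this interval, at chr9:110281353-110281371.

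Against the gene map, the no-antibody intervals resembled the bases of the chromosomes more than did the other S9.6 intervals, although gene ends were over-represented against the bases. By their best summit, 12.5% were within 1000 bp of a gene end (59 of 472 placed intervals, 9.65 to 15.8), 38.1% in a gene body and 49.4% between genes, where the bases of the same chromosomes divide as 6.10%, 43.0% and 50.9%. Within 1000 bp of a RefSeq start site lay 31 of the 472 intervals (6.57%, 4.51 to 9.19). S9.6 intervals without a no-antibody interval reached 36.8% in shCtrl (33.4 to 40.2), 55.2% in shUbe2t #1 (52.2 to 58.1) and 57.0% in shUbe2t #2 (54.1 to 59.8). S9.6 intervals with a no-antibody interval reached 6.33%, 7.46% and 7.71% in the same order. They were defined by overlap with the no-antibody list, so their closeness to its share is no separate result.

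**Figure D5:**
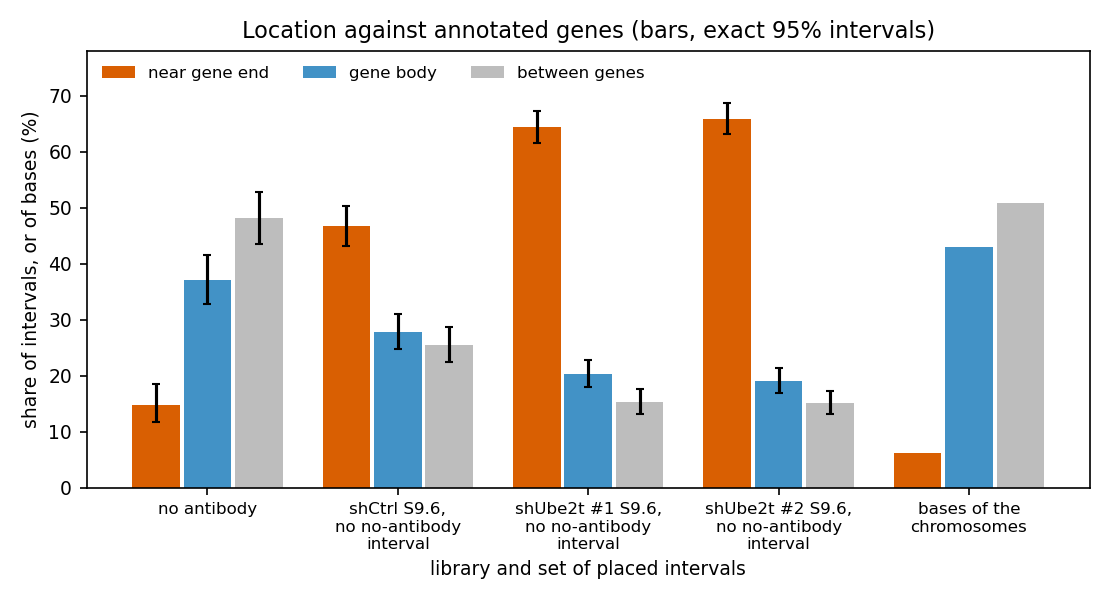
Share of placed intervals (y axis, percent) near a gene end, in a gene body and between genes, for the no-antibody list, for each S9.6 list without its intervals that overlap a no-antibody interval, and for the bases of chromosomes 1 to 19, X and Y. Bars at the tops are exact 95% limits, and the no-antibody shares (14.8, 37.1 and 48.1%) lie nearer those of the bases (6.10, 43.0 and 50.9%) than the S9.6 shares do.

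The 70 intervals near a gene end, at either its start or its other end, were divided among several kinds of gene. Each was given 1 gene, a named gene before a predicted one and then the nearest, so that gene need not be the nearest of all. It was protein-coding in 33 of the 70, a pseudogene in 14, a transcribed pseudogene in 5 and a long non-coding RNA in 11. MicroRNAs, 5S ribosomal RNAs and small nucleolar RNAs had 2 each, and a transfer RNA 1. In 35 of the 70 the gene had only a predicted name, and without predicted genes the share of placed intervals near a gene end was 7.42% in place of 14.8%. All 3 S9.6 lists held 54 of the 70 (77.1%, 65.6 to 86.3) and 2 were in none, while of the 175 in gene bodies 107 were in all 3 (61.1%, 53.5 to 68.4) and 35 in none.

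Among intervals placed near the end of a gene without a predicted name, those of highest fold after Mir6236 were near Wls, a Wnt secretion factor (52 fragments without antibody, 45, 48 and 48 with S9.6), Slc22a29, a solute carrier gene (48, then 130, 133 and 151), and Lars2. Wls was lower with S9.6 per depth (0.508, 0.588 and 0.579 times) and Slc22a29 higher (1.59, 1.76 and 1.97 times). Cacna2d2, a calcium channel subunit (30, then 39, 42 and 30), and Arhgap25, a RAC GTPase-activating protein (31, then 43, 40 and 41), were below 1 per depth in each S9.6 library. At the gene start of the vomeronasal receptor Vmn2r29 the pileup was 22 and then 49, 46 and 49, at 1.31, 1.33 and 1.40 times.

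The gene starts printed above were low except for Stap2. The Stap2 interval held 88 fragments without antibody and 199, 263 and 267 with S9.6, which is 1.33, 1.90 and 1.90 times per depth. The intervals of Stap2 (fold 23.7) and Add3 lie more than 1000 bp from any annotated gene end. They were therefore counted in gene bodies and not among the 70 near a gene end. Gpr155 held 9 and then 18, 21 and 18, Baiap2l1 8 and then 17, 16 and 16, and Add3 13 and then 19, 28 and 26. Zfyve19 held 9 fragments without antibody and had no S9.6 call. With so few fragments, none of the low intervals separates S9.6 from no antibody by itself.

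The 5S ribosomal RNA array on chromosome 8 gave 3 intervals and each was in all 3 S9.6 lists. The interval 252 bp from n-R5s146 (chr8:123617180-123617782) held 33 fragments without antibody and 67, 58 and 55 with S9.6, at 1.19, 1.12 and 1.05 times per depth. Near Rn5s-ps1 the counts were 34 and then 63, 72 and 54 (1.09, 1.35 and 0.996 times), and near n-R5s122 16 and then 27, 22 and 25 (0.990, 0.875 and 0.980 times). Of 63 annotated ribosomal RNA genes, 5 had a no-antibody interval in their body or within 1000 bp, and these 5 lie at the same 3 intervals. Of all 49943 placed genes, 246 (0.493%) had one. The S9.6 lists held 6 of the 63 each. Because the copies of the array are near-identical, reads cannot be given to single copies with certainty.

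The other gene lists are read against the 0.493% of all 49943 placed genes with a no-antibody interval and the 893, 1366 and 1498 of them with an S9.6 interval in control, hairpin 1 and hairpin 2. Of 15 highly transcribed genes 0 had a no-antibody interval, while the S9.6 lists held 6, 4 and 4 of them. Of 28 long and fragile-site genes 3 did (10.7%), and the S9.6 lists held 6, 8 and 6. The 3 included Chl1 and Wwox (fold 4.25), whose interval was in no S9.6 list. Olfactory receptor genes held 0 of 1428, vomeronasal receptor genes 3 of 645, Zfp genes 2 of 416 and immunoglobulin and T-cell receptor segments 0 of 686. Among transfer RNA genes n-TEctc8 was the only 1 of 408 (fold 5.14, 2 S9.6 lists). Protein-coding genes held 160 of 21887 (0.731%), pseudogenes 30 of 10434 (0.288%) and predicted genes 85 of 25094 (0.339%).

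The placed intervals were bunched. When intervals within 100000 bp of the next were joined, 20 groups of 3 or more held 128 of the 472 (27.1%), and 318 stood alone. The largest groups were on chromosome 5, with 14 intervals in 147359 bp at Speer8-ps1, Gm9758 and Gm17019, and with 26 in 249551 bp at Speer4cos and a run of predicted genes. Speer genes are a rodent family with many copies. Their intervals were low, from 12 to 51 fragments, and 12 of the 14 and 22 of the 26 were in all 3 S9.6 lists. Their median S9.6 ratios were between 0.796 and 0.966.

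Other groups lay at repeated gene families and chromosome ends. Chromosome 8 held 11 intervals between 20267601 and 20590845 at 2610005L07Rik and its neighbours. Chromosome 10 held 4 at Duxf3, of the Dux homeobox gene array, with 20 to 44 fragments. Chromosome 11 held 6 at Sfi1 and Pisd-ps1, chromosome 2 held 8 near its end at Gm40034, and the Y chromosome held 7 between 90739919 and 90826311. The group on chromosome 19 near its end (3 intervals) had the highest median S9.6 ratios of the 20, at 1.38, 1.52 and 1.61, and the 3 intervals on chromosome 2 at 98662211 had the lowest in shCtrl and shUbe2t #2, at 0.655 and 0.655. Groups of 3 or more, unplaced and mitochondrial ones included, held 162 intervals. Of these 143 were in all 3 lists (88.3%, 82.3 to 92.8), against 195 of 322 that stood alone (60.6%, 55.0 to 65.9).

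Chromosomes carried unequal numbers. Chromosome 5 had 52 intervals (0.350 per Mb), chromosome 8 had 39 (0.309) and chromosome 17 had 27 (0.294), against 10 on X (0.0596) and 13 on chromosome 7 (0.0913). All placed chromosomes together had 0.177 per Mb. With intervals within 100000 bp of the next joined, chromosome 5 had 14 separate places, against 24 on chromosome 8 and 19 on chromosome 17. Its high density thus came with the bunching described above. On chromosomes 1 to 19 and X, 37 of 460 intervals (8.04%) started between 3000001 and 4000000, the first sequenced stretch beside the centromere, which makes up 0.778% of their extent. Chromosome 9 gave 14 of the 37.

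Sequence outside the placed chromosomes was well represented. There were 41 intervals on 12 unplaced sequences, of which JH584304.1 held 14 and GL456390.1 held 6, and 36 of the 41 were in all 3 S9.6 lists (87.8%, 73.8 to 95.9). The tallest unplaced interval, on GL456392.1, held 201 fragments without antibody. The median S9.6 ratios over the unplaced intervals were 0.854 for control, 0.780 for hairpin 1 and 0.710 for hairpin 2, the reverse of the order on the mitochondrial genome. Knockdown over control, shUbe2t #2 was above 1 at 6 of 36 unplaced intervals, with a median of 0.853, and shUbe2t #1 at 18 of 39, with a median of 0.995.

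At the edge of the list, the 5 intervals with the lowest −log10 q (1.31 to 1.38) held 7 or 8 fragments at folds of 3.91 to 4.08. The list ends at 1.31, and values of places below it are not analysed here. Of the 5, the intervals in the body of Sytl3 and 3 between genes were in no S9.6 list. The interval in Copg2, a coatomer gene (chr6:30804856-30805055), held 7 fragments without antibody and was called in shUbe2t #1 with 12 and shUbe2t #2 with 14.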

How the data were processed

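Per the labels, CUT&Tag libraries of P19 cells were made with a hyperactive universal kit and 11 PCR cycles, 1 library for each of 4 conditions. The submitters' processing notes name Trimmomatic, Bowtie, MACS2 2.1.2 and mm10. Handling of duplicate and multiply aligned reads is not given in the sources used here. The deposited peak lists, called by the authors for each library separately, give a fold enrichment over local background, −log10 p and −log10 q for each summit. The deposited score is 10 times the −log10 q and was not used in any result.

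Distinct intervals were kept with their best summit. The whole number of fragments over a summit (pileup) and the local background were recovered from fold and −log10 p under a Poisson model. The fold was taken as (pileup + 1) over (background + 1). This gave whole numbers within 0.01 of −log10 p for 100% of summits in each library. It also recovered 600 of 600 summits simulated under the same model, which checks the calculation and not the model. Pileups were divided by each library's lowest background to scale for depth. Intervals were compared by overlap from 1 bp and located against RefSeq genes of GRCm38 with a window of 1000 bp at gene ends. Shares have exact Clopper-Pearson limits at 95%, and ratios of 2 pileups exact limits from the binomial split of their sum. Python 3.11.15, numpy 2.4.6, scipy 1.17.1 and matplotlib 3.10.9 were used.

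Named intervals were the 10 highest folds on placed chromosomes, the 10 highest in no S9.6 list, the 10 highest at ends of genes without predicted names, the mitochondrial intervals, groups of 3 or more within 100000 bp, the 5 lowest −log10 q and hits of gene lists. The tallest pileups, the highest and lowest S9.6 ratios, Gm10222 and the promoter word were chosen after values were seen. The members and lists were chosen with earlier results of these data known. Alternatives changed the overlap, thresholds, list length, gene-end window, gene set and depth scale. No condition was replicated, so conditions were not tested against each other.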

Additional observations from a re-analysis of the deposited data

How the results depend on the processing

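Of 67 alternatives, 41 gave a value within the 95% limits of the value reported, 21 moved it outside them and 5 took a ratio to the other side of 1. Requiring the best summits to lie within 100 bp gave overlap shares of 76.0% with shCtrl, 72.1% with shUbe2t #1, 71.1% with shUbe2t #2, 60.1% with all 3 lists and 16.3% with none. Keeping only intervals with −log10 q of at least 5 gave 90.0%, 84.5%, 84.5%, 77.6% and 5.82% in that order, and shortening each S9.6 list to the length of the no-antibody list gave 70.5%, 64.9%, 63.4%, 57.2% and 23.8%. The share near a gene end was 10.4% with a window of 500 bp, 22.2% with 2000 bp and 7.42% without predicted genes, which also gave 27.8% in gene bodies and 64.8% between genes. Without the depth scale the median S9.6 over no-antibody ratios turned to 1.44, 1.35 and 1.32, so their direction rests on that scale, and the knockdown over shCtrl medians were 0.967 for shUbe2t #1, which turned, and 0.922 for shUbe2t #2. On placed chromosomes alone the shUbe2t #2 median was 1.00. Depth is known only from the lowest background, pileups of under 15 fragments have wide counting limits, and a place not called has no value. No paired analysis was possible because each condition has 1 library and no test was made.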
